A study of Mus musculus with 4 samples.

Results

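The data described here are 2 of the 4 arrays of a study of mouse embryonic stem (ES) cells and extraembryonic endoderm (XEN) cells. Both were made from the XEN line IM8A1 (PO strain) at passage 27, and they differ in how the cells were grown. IM8A1-I was grown on gelatin in a medium labelled 70% EMFI-CM. IM8A1-II spent 4 days in RPMI 1640 with 20% fetal bovine serum (FBS), on plastic made for tissue culture. The other arrays, set beside this pair where a gene's level needs a reference, are XEN1-3, a line of the ICR strain at passage 18 grown like IM8A1-I on gelatin in 70% EMFI-CM, and undifferentiated R1 ES cells grown on gelatin with LIF. Total RNA of each culture was hybridised to 1 Affymetrix MG_U74Av2 array, so a difference between the IM8A1 cultures has no replicate check and no p-value is given. Medium and surface differ between them, and so does the fluidics station. Serum and time in the condition may differ too, as they are given for IM8A1-II only. These factors cannot be told apart.

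XEN cells are self-renewing cells of the primitive endoderm lineage, which forms the visceral endoderm around the embryo and the parietal endoderm of the outer yolk sac. Visceral endoderm takes up maternal nutrients and secretes carrier proteins and apolipoproteins, much as liver does later, while parietal endoderm lays down a thick basement membrane rich in laminin and type IV collagen. The culture medium reaches cells through sensing pathways that act on transcription. When sterols are scarce, SREBP proteins switch on the enzymes of cholesterol synthesis, and when amino acids are scarce or protein folding is disturbed, the integrated stress response raises the translation of ATF4, which switches on amino acid transporters, synthetic enzymes and transfer RNA synthetases.

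All 12422 probe sets that are not controls were considered, and the comparison covered the 7870 with a signal at or above a background limit of 27.2 units (the 40th percentile of all values) on at least 1 array of the pair. Signals are arbitrary units on a linear scale. A log2 difference is that of log2(signal + 10.5 units), IM8A1-II minus IM8A1-I, and understates the change of dim genes. A probe set counts as 2-fold different by this measure. A fold is the plain ratio of both signals, and where the dimmer one lay under the limit it is written as at least the brighter signal over the limit. Where a gene had several probe sets, the brightest in this pair stands for it, which left 5885 genes.

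Several marker genes, though not all, followed the labelled cell type. The endoderm transcription factors Sox17 (1895 units in IM8A1-I and 1712 in IM8A1-II), Foxa2 (512 and 520.1) and Gata4 (1196 and 899) were bright in both cultures. Sox7 (1339 and 225) differed more, and Hnf4a (15.2 and 37.2) was dim. The pluripotency factor Nanog (19.3 and 22.7) was under the limit in both. Of the pluripotency list, Klf4 (2009 and 1176) and Fbxo15 (508 and 222, 2.29-fold lower in IM8A1-II) were above it in both. ES cells read 708 and 846 for these genes. For Pou5f1 the probe set that read 3191 in ES cells read 2.60 and 1.80, and the one that was brightest in this pair read 27.7 and 21.1, about the limit, and was under the limit in ES cells. The transcript Xist, made from an inactive X chromosome, stood at 207 and 255 units in the IM8A1 cultures and at 4.80 in XEN1-3, and the Y-linked Eif2s3y at 6.50, 10.6 and 145. Both arrays of the pair came from 1 chip lot and were washed by 1 protocol, on different fluidics stations. The XEN1-3 array came from the same lot and the ES array from another, so differences from ES cells also cross chip lots. The run records carry the letters GEL for IM8A1-I and DIFF for IM8A1-II, which the labels do not explain. The median signal was 48.8 in IM8A1-I and 52.3 in IM8A1-II, and the ratio of 3' to 5' signal was 1.21 and 1.24 for actin and 0.969 and 0.954 for Gapdh. The run record of XEN1-3 carries a message that no fluid was detected, and its part in the XEN1-3 values was not tested.

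Of the 7870 probe sets, 291 (3.70%) were at least 2-fold higher in IM8A1-II and 204 (2.59%) at least 2-fold lower, or 6.29% in either direction. Over genes these shares were 3.65% (215 of 5885) and 2.68% (158), or 6.34% in either direction, and 38 genes differed by at least 4-fold. The median difference over genes was 0.01 in log2, and the middle 50% of genes lay between -0.26 and 0.28. Which direction held more calls depended on the scaling: with arrays scaled to a common median, 247 probe sets were higher and 266 lower, so that 48.1% of the calls were higher instead of 58.8%. Dim probe sets were called more often. With the probe sets divided into 4 equal bins by mean signal, 12.3% of the dimmest bin (15.9 to 58.5 units) passed 2-fold, against 4.27%, 3.30% and 5.23% in the brighter bins, and 247 of the 495 calls had 1 array under the limit. Of the 1007 genes with several compared probe sets, 43 had a brightest probe set past 2-fold, and the next brightest pointed the same way in 33 and was itself past 2-fold in 13.

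**Figure D1:**
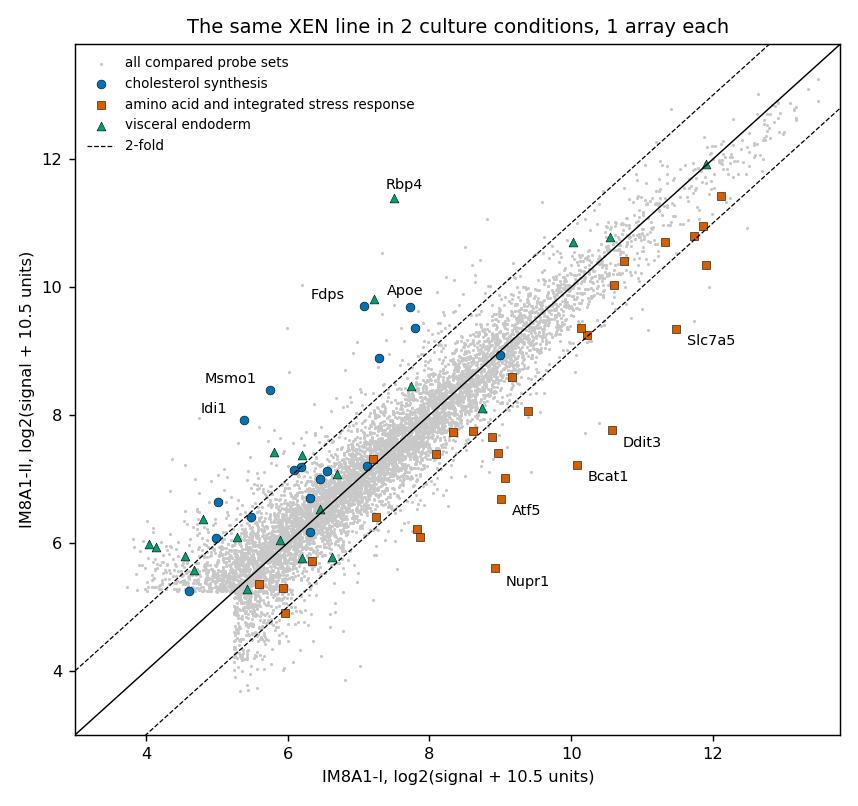
Signals of the 7870 compared probe sets (grey) in IM8A1-II (vertical axis) and IM8A1-I (horizontal axis), both as log2(signal + 10.5 units), with genes of 3 lists in colour, a solid line of equality and dashed lines at 2-fold. The cholesterol synthesis genes lie on or above the line apart from 2 just under it, 29 of 30 amino acid and stress response genes lie below it, and Rbp4 stands highest above it.

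The 32 gene lists were chosen with earlier results of these data known, so their ranks and counts are descriptive. The cholesterol synthesis genes had the highest median of these lists. Of 18 compared members 9 were at least 2-fold higher in IM8A1-II and 0 lower, against 3.65% and 2.68% of all genes. Their median log2 difference was 1.02, against 0.01 over all genes. The differences ran from -0.15 to 2.64, and 16 of the 18 were above 0. Of the 9, 7 had a signal above the limit in both cultures. Hmgcs1, HMG-CoA synthase at the entry to the pathway, stood at 211 units in IM8A1-I and 644 in IM8A1-II (3.05-fold). Idi1, isopentenyl diphosphate isomerase, stood at 31.2 and 231 (7.41-fold) and Fdps, farnesyl diphosphate synthase, at 125 and 819 (6.55-fold). These enzymes build the isoprenoid chain. A second bright probe set of Fdps read 116 and 552, and a dim one read the other way, 35.3 and 16.0. Among the squalene and sterol enzymes, squalene synthase (Fdft1) stood at 146 and 465, squalene epoxidase (Sqle) at 201 and 811, lanosterol synthase (Lss) at 57.6 and 131, and the sterol demethylating enzyme Msmo1 at 43.3 and 326 (7.52-fold). The last steps, Dhcr7 (89.7 in IM8A1-II, at least 3.30-fold) and Sc5d (21.3 and 57.2, at least 2.10-fold), were under the limit in IM8A1-I. Mevalonate kinase (Mvk, 128 and 137), Srebf1 (499 and 479) and Ggps1 (69.4 and 61.4), a branch enzyme towards geranylgeranyl diphosphate, were nearly level. The feedback protein gene Insig1 was under the limit on all 4 arrays.

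For several of these genes IM8A1-I was the array that stood apart. XEN1-3 shared the medium and surface of IM8A1-I but is another line, of another strain and passage. What sets the arrays apart was not tested. XEN1-3 read 171 units for Idi1, 660.0 for Fdps, 279.9 for Msmo1 and 725 for Sqle, all closer to IM8A1-II. It read 341 for Hmgcs1 and 74.4 for Ebp, a sterol isomerase at 62.4 in IM8A1-I and 135 in IM8A1-II, both closer to IM8A1-I. The list's median difference from XEN1-3 was 0.12 for IM8A1-II and -1.14 for IM8A1-I, comparisons that share the XEN1-3 array. R1 ES cells read higher still for Idi1 (952) and Fdps (1584).

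The sequence upstream of these genes is shown because the members moved together. The 250 bases before the RefSeq gene start (build GRCm38.p6) could be read for 15 of the 18 members. They were searched on both strands for the sterol regulatory element TCACNCCAC, the type of site that SREBP binds, and for the CCAAT box, the NF-Y site that often accompanies it. Capitals mark either match, the CCAAT box as CCAAT or its reverse complement ATTGG. Windows are given for Msmo1, Idi1 and Dhcr7, the largest differences with a window, and for Hmgcs1, the member with the sterol element. Msmo1 lies on the minus strand at chr8:64733579-64733828, and Idi1 (chr13:8885356-8885605), Dhcr7 (chr7:143829964-143830213, 1 of 3 windows of this gene) and Hmgcs1 (chr13:119690101-119690350) on the plus strand.
Msmo1: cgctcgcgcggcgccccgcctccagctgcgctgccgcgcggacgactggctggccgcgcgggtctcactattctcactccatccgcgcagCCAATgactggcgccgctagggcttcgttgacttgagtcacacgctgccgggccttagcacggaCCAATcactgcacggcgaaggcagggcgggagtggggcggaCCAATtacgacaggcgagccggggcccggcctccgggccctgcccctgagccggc
Idi1: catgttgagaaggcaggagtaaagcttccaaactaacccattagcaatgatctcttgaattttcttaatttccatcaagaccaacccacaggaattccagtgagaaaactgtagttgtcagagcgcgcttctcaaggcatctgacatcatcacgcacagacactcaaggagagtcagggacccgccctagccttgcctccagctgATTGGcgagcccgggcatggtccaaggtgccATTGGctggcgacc
Dhcr7: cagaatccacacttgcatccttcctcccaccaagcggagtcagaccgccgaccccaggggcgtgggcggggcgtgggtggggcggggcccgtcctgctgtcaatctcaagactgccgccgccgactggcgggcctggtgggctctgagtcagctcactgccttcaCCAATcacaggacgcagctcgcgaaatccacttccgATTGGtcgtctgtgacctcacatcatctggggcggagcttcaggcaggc
Hmgcs1: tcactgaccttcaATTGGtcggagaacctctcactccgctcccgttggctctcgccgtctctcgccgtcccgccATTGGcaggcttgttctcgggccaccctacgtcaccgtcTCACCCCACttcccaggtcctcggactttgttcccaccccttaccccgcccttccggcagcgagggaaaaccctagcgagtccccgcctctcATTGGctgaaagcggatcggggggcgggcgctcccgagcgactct
The sterol element began 137 bases before the Hmgcs1 start and was found in 1 of the 15 members, against 1.22% of 27025 genes with a window. A CCAAT box was found in all 15 members with a window, against 37.5% of all genes. Those 15 comprised 6 members past 2-fold and 9 that were not, so the box did not separate them. A match is a run of letters, not a measured binding site.

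Genes of fatty acid synthesis and lipid storage were higher too, by less. The list's median was 0.42, 14 of 18 members were above 0, and 2 passed 2-fold: ATP citrate lyase (Acly, 317 units in IM8A1-I and 776 in IM8A1-II), which makes cytosolic acetyl-CoA, and malic enzyme (Me1, 162 and 484). The share of all genes at least 2-fold higher was 3.65%. The elongase Elovl5 stood at 594 and 1010 and Pparg, a regulator of lipid storage, at 30.4 and 61.1. XEN1-3 read 660.1 for Acly and 1736 for Me1, above both IM8A1 cultures in the case of Me1.

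The amino acid and integrated stress response list had the lowest median of all lists, at -0.92. Of 30 compared members 13 were at least 2-fold lower in IM8A1-II, 0 were higher, and 29 were below 0. Over all genes 2.68% were at least 2-fold lower. Stress-induced transcription factors were among the 13. Ddit3 (CHOP) stood at 1512 units in IM8A1-I and 206 in IM8A1-II (7.32-fold), Atf5 at 507 and 92.5 (5.48-fold) and Cebpb at 224 and 58.0 (3.86-fold). Nupr1, a small stress-induced nuclear protein and the largest difference of any gene in this direction, stood at 475 and 38.1 (12.5-fold). Trib3, a pseudokinase that restrains the response, stood at 525 and 119, and Ppp1r15a (GADD34), which restores translation, at 462 and 192. Atf4 itself stood at 3390 and 1773 (1.91-fold) and Atf3 at 1551 and 1035.

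Of the list's amino acid transporters, 5 were among the 13. Slc7a5 and its partner chain Slc3a2, which together import large neutral amino acids, stood at 2844 and 642 (4.43-fold) and at 3811 and 1283 (2.97-fold). The neutral amino acid carriers Slc1a5 (216 and 63.8) and Slc1a4 (658 and 257) passed 2-fold as well, and so did the cationic carrier Slc7a1 (51.8 and 19.3, at least 1.90-fold by its bound). The glycine carrier Slc6a9 (313 and 202) did not, and Slc7a11 (3.60 and 5.90) and Slc7a3 (19.9 and 10.8) were under the limit in both. Among the enzymes, Aldh18a1, at the start of proline synthesis, stood at 492 and 159.5, and the branched-chain aminotransferase Bcat1 at 1076 and 139 (7.76-fold). Asparagine synthetase (Asns, 3704 and 1979) and the serine pathway enzymes Psat1 (4445 and 2725) and Psph (1120 and 644) were lower by less than 2-fold, and Shmt2 (137 and 149) was level.

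For several members XEN1-3 again read closer to IM8A1-II than to IM8A1-I, with 193 units for Ddit3, 127 for Atf5, 60.3 for Trib3, 192 for Ppp1r15a and 919.5 for Slc7a5. The list's median difference from XEN1-3 was -0.02 for IM8A1-II and 0.99 for IM8A1-I, with the XEN1-3 array shared. Bcat1 followed another order, at 1253 in ES cells and 15.1 in XEN1-3. Atf3 (288 in XEN1-3) was higher in both IM8A1 cultures, and Slc1a4 (521 in XEN1-3) lay nearer to IM8A1-I.

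**Figure D2:**
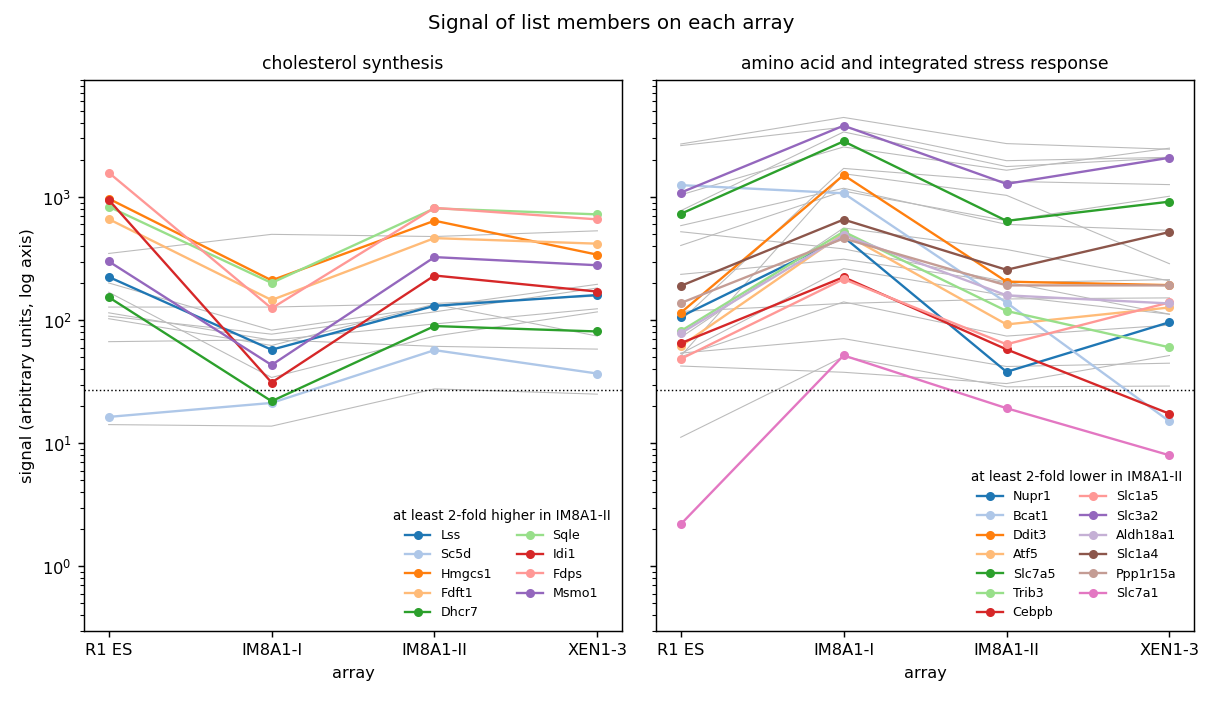
Signal of the cholesterol synthesis genes (left) and of the amino acid and integrated stress response genes (right) on each of the 4 arrays, in arbitrary units on a log axis, with members past 2-fold between the IM8A1 cultures in colour, the others in grey and the background limit of 27.2 units dotted. Lines join the values of 1 gene and imply no order of the arrays. IM8A1-I is the low array for most coloured genes on the left and the high array for most on the right. On the left IM8A1-II and XEN1-3 lie close together for most coloured genes. On the right they are close for some, such as Ddit3 (206 and 193), and apart for others, such as Bcat1 (139 and 15.1) and Nupr1 (38.1 and 96.4).

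Transfer RNA synthetase genes were lower in part. Of 21 cytosolic aminoacyl-tRNA synthetase genes and their scaffold genes, 18 were below 0 and 5 at least 2-fold lower, with a median of -0.44. The arginyl (Rars, 2038 units in IM8A1-I and 797 in IM8A1-II), threonyl (Tars, 1066 and 481), alanyl (Aars, 1367 and 663), tyrosyl (Yars, 443 and 216) and glutamyl-prolyl (Eprs, 756 and 369) synthetases were those 5. The 5 calls became 4 with quantile normalization, without Aars (-0.98), and 2 when the 50th percentile served as the offset, where Aars (-0.99) and Eprs (-0.95) were among those lost. Of 24 cytosolic ribosomal protein genes 23 were below 0, by a median of -0.34, and 1, Rpl22 (307 and 119.9), was at least 2-fold lower, a share near the 2.68% of all genes. A dimmer probe set of Rpl22 read the other way (44.9 and 64.8). Rps19 stood at 4811 and 2669 and Rps10 at 6670 and 4099. XEN1-3 read 5515 for Rps19 and 6094 for Rps10, and the list's median difference from XEN1-3 was -0.50 for IM8A1-II and -0.06 for IM8A1-I. The median was -0.21 with quantile normalization.

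Snhg1, a host gene of small nucleolar RNAs and among the largest differences, stood at 3387 and 699 (4.85-fold), and the host genes Gas5 (5681 and 1941) and Snhg5 (465 and 148) were singled out after their values were seen. XEN1-3 read 843, 2129 and 135. A second Gas5 probe set differed little, at 206 and 168.

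The element TGATGNAA, the type of site bound by ATF4 and C/EBP proteins, was searched for on both strands of the same 250-base windows. It was found in 5 of 26 members of the stress list with a window and in 3 of 14 synthetase genes, or 19.2% and 21.4% against 3.91% of all genes. Among stress list members past 2-fold it was found in 1 of 11, and in 4 of 15 of those that were not. The members past 2-fold that held it were Nupr1 (minus strand, chr7:126625471-126625720), Tars (minus strand, chr15:11399659-11399908) and Aars (plus strand, chr8:111033592-111033841). Their windows are shown with the match in capitals, which in all of them reads TTGCATCA, the reverse complement.
Nupr1: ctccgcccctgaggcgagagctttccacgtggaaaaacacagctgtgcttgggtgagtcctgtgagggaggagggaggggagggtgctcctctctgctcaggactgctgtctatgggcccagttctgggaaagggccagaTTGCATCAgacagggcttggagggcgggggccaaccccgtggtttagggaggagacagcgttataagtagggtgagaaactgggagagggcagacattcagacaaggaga
Tars: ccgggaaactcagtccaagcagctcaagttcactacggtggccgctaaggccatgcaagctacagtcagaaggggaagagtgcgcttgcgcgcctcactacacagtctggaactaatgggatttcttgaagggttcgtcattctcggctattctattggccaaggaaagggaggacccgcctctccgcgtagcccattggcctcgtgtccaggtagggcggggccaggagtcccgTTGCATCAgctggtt
Aars: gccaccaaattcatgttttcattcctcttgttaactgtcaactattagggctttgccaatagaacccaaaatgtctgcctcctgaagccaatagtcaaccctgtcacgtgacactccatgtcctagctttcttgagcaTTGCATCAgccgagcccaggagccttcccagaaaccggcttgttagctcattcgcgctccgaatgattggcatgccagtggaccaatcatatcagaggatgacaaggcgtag
The match began 110 bases before the start of Nupr1, 15 before that of Tars and 112 before that of Aars.

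**Figure D3:**
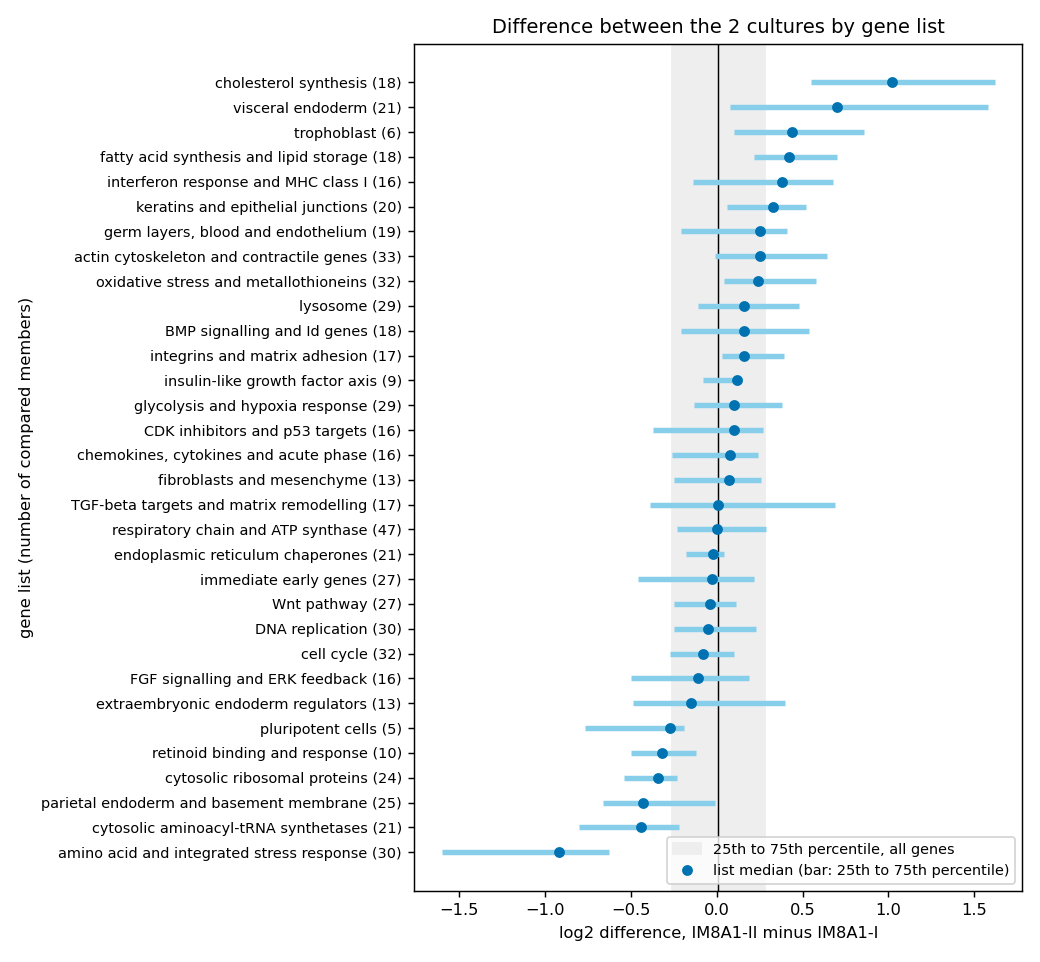
Median log2 difference, IM8A1-II minus IM8A1-I, of 32 gene lists (points) with the 25th to 75th percentile of their compared members (bars), beside the median (line) and the 25th to 75th percentile (grey band) of all 5885 genes. Cholesterol synthesis (1.02) and visceral endoderm (0.70) lie at the top, and the amino acid and integrated stress response (-0.92) and the aminoacyl-tRNA synthetases (-0.44) at the bottom. The lists were chosen with earlier results of these data known.

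Visceral endoderm genes were the second group that was higher in IM8A1-II. Of 29 listed genes on the array 21 were compared, and of these 8 were at least 2-fold higher, against 3.65% of all genes. In the list 0 members were at least 2-fold lower and 17 were above 0, with a median of 0.70. Without a filter on dim probe sets, all 29 had a median of 0.37. Rbp4, the plasma carrier of retinol, had the largest log2 difference of any gene in this direction (3.88), at 171 units in IM8A1-I and 2671 in IM8A1-II (15.6-fold). Apoe, a lipoprotein component, stood at 138 and 888 (6.45-fold), transthyretin (Ttr), which carries thyroid hormone and retinol-binding protein, at 45.3 and 161 (3.55-fold), and the signal Ihh at 62.9 and 156 (2.47-fold). The other 4 were under the limit in IM8A1-I and dim in IM8A1-II: the apolipoproteins Apom and Apoc2 (45.3), the lipoprotein assembly protein Mttp (72.8) and alpha-fetoprotein (Afp, 50.7). These dim calls depended on the setting: the list's 8 calls became 6 with values raised to the limit, 4 among probe sets that reached the 60th percentile of signal on 1 array, and 3 when the 50th percentile served as the offset. A second Afp probe set was under the limit on every array.

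The other visceral endoderm members differed by less. The scavenging receptor Cubn stood at 1485 and 1751 and its partner Lrp2 at 418 and 267, the adhesion gene Cdh1 at 93.4 and 124 and the regulator Hnf4a at 15.2 and 37.2 (at least 1.37-fold). Albumin (16.8 and 16.4), Apoa1 (6.90 and 10.7) and Apob (13.5 and 17.7) were under the limit in both cultures. The place of XEN1-3 differed by gene. It read 129.8 for Rbp4 and 54.7 for Ttr, near IM8A1-I, but 182 for Ihh, near IM8A1-II. For Mttp (42.4) and Afp (26.9) it lay between the IM8A1 cultures, and for Apoe (11.6) below both. Apoe was brightest in ES cells (1836), so on these arrays it was not restricted to endoderm. Over the list, the median difference from XEN1-3 was 0.61 for IM8A1-II and 0.08 for IM8A1-I.

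Parietal endoderm and basement membrane genes were slightly lower in IM8A1-II. Of 25 compared members 19 were below 0, with a median of -0.43, and the 2 at least 2-fold lower were Stra6, the membrane receptor for retinol-binding protein (296 units in IM8A1-I and 84.5 in IM8A1-II), and the epithelial repressor Snai1 (660.0 and 239). Among all genes 2.68% were at least 2-fold lower and 3.65% higher. The proteoglycan Srgn (753 and 372) and thrombomodulin (Thbd, 393 and 199) lay just short of 2-fold. The basement membrane genes stayed bright: Lama1 stood at 9259 and 6375, Col4a1 at 7712 and 6377, Col4a2 at 5658 and 3491 and Sparc at 7284 and 7376. The member that was at least 2-fold higher was the cathepsin Ctsh (291 and 1131), for which XEN1-3 read 1027. XEN1-3 read 465 for Stra6 and 590.1 for Snai1, nearer to IM8A1-I, but 6066 for Lama1 and 4911 for Col4a1, nearer to IM8A1-II. The list's median difference from XEN1-3 was -0.04 for IM8A1-II and 0.21 for IM8A1-I.

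Among 13 compared regulators of extraembryonic endoderm, Sox7 differed most, at 1339 and 225 units (5.95-fold lower in IM8A1-II), while its relative Sox17 was level. Gata6 was lower by less than 2-fold (1973 and 1086). XEN1-3 read 981 for Sox7 and 2468 for Gata6, so that IM8A1-II was the lowest XEN array for both on these probe sets. ES cells read lower still (23.7 and 13.1). A dimmer probe set of Gata6 was level, at 59.2 and 59.1, with 59.2 in XEN1-3. Another read 44.1 and 16.4, with 34.5 in XEN1-3. The orphan receptor Nr2f2 stood at 73.7 and 30.8. The endocytic adaptor Dab2 was the member past 2-fold in the other direction, at 2333 and 4937, and its other probe sets read 379 and 1296, and 277 and 624. With arrays scaled to a common median its difference was 0.98.

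**Figure D4:**
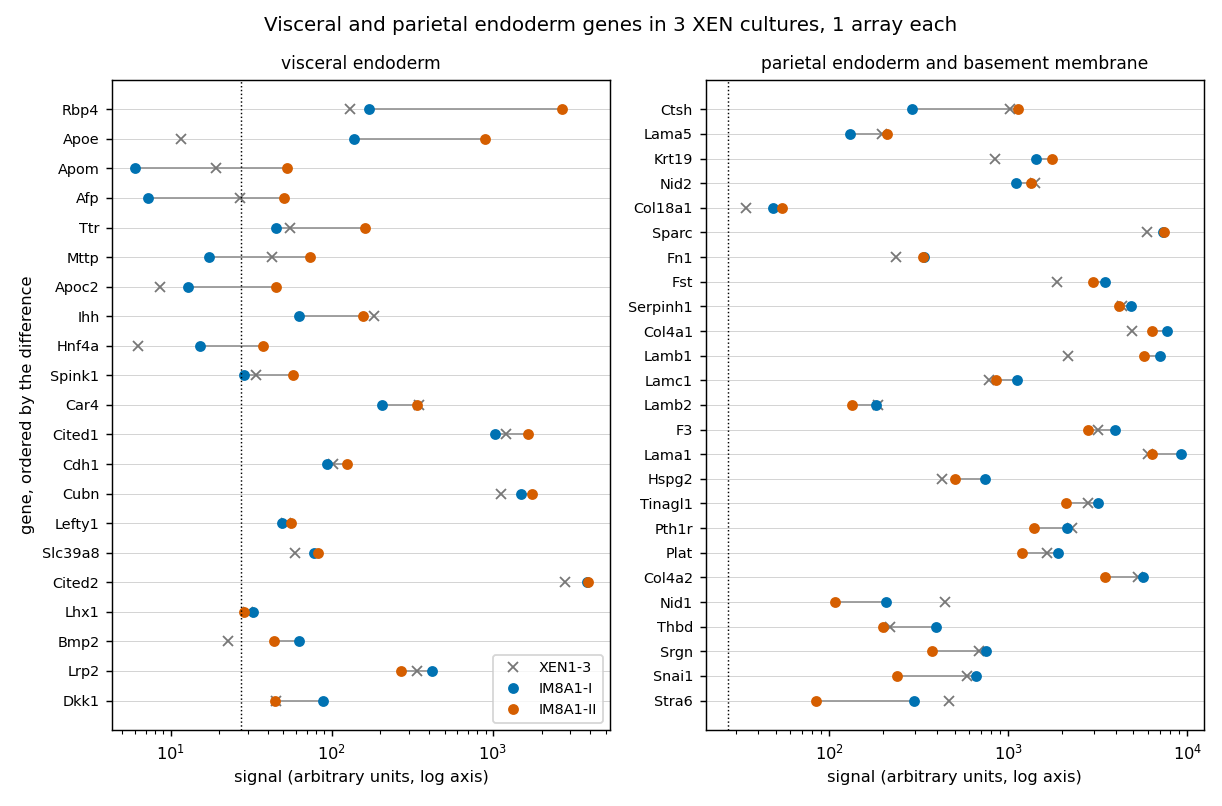
Signals in IM8A1-I (blue), IM8A1-II (orange) and XEN1-3 (crosses), in arbitrary units on a log axis, of the compared visceral endoderm genes (left) and parietal endoderm and basement membrane genes (right), ordered by the difference between the IM8A1 cultures. The dotted line is the background limit of 27.2 units, and grey lines join the IM8A1 values of a gene. Rbp4 and Apoe are far higher in IM8A1-II than in IM8A1-I and XEN1-3, and Stra6 and Snai1 are lower.

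Signals and inhibitors of the BMP pathway differed at a few points. BMP ligands act through SMAD proteins, and Id genes are direct targets. Id1 stood at 72.5 and 278 units (3.83-fold higher in IM8A1-II), Id2 at 842 and 1590 and Id3 at 10.1 and 149 (at least 5.47-fold), while Id4 was dim and level (31.7 and 36.7). The inhibitory Smad6, itself a target, stood at 38.9 and 109, but Smad7 at 189 and 154. Noggin (Nog), a secreted BMP antagonist, was lower, at 351 and 121 (2.90-fold). The ligands Bmp2 (62.9 and 44.0), Bmp4 (59.0 and 67.5) and Bmp6 (143 and 159) differed by less than 2-fold. Of the list's 18 compared members 3 were at least 2-fold higher and 1 lower, against 3.65% and 2.68% of all genes. The list's median was 0.16. XEN1-3 read 103 for Id1, 22.4 for Id3, 20.6 for Smad6 and 263 for Nog, so IM8A1-II was the XEN array apart for these 4. ES cells read 155, 111, 84.6 and 15.6. Other dim signalling genes were Wnt4, at 5.60 and 70.4 (at least 2.59-fold higher), and Fgf3, at 102 and 4.00 (at least 3.75-fold lower).

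Epithelial junction genes were higher in part. The tight junction genes Cldn6, at 150.2 and 756 units (5.03-fold), and F11r, encoding junctional adhesion molecule A, at 352 and 1575 (4.47-fold), were among the largest differences, and occludin (Ocln) stood at 3.80 and 50.5 (at least 1.86-fold). The desmosomal Pkp2 stood at 272 and 686, with a second probe set at 137 and 313. The keratins Krt8 (1962 and 2737) and Krt18 (2104 and 3834) were bright in both cultures, while Krt20 was dim (45.4 and 52.5) and Krt7 under the limit (8.40 and 2.30). Over the 20 compared members of the keratin and junction list, which does not hold F11r, 3 were at least 2-fold higher and 0 lower. These counts stand against 3.65% and 2.68% of all genes. In that list 16 members were above 0, with a median of 0.33. XEN1-3 read 383 for Cldn6, 275 for F11r and 286 for Pkp2.

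Contractile and serum-responsive genes gave a mixed picture. Of 33 actin cytoskeleton genes 6 were at least 2-fold higher and 0 lower, against 3.65% and 2.68% of all genes. The list's median was 0.25. Tagln stood at 37.7 and 214 units (5.66-fold), the membrane-binding annexin Anxa1 at 110.3 and 490.2 (4.44-fold, with its other probe sets at 54.6 and 398, and 15.8 and 67.8), Fhl2 at 269 and 684, Csrp1 at 572 and 1321, skeletal actin Acta1 at 19.7 and 115 and smooth muscle actin Acta2 at 7.30 and 40.6 (at least 1.49-fold). Acta2 was brighter in XEN1-3 (163) and ES cells (146) than in both IM8A1 cultures, and Tagln was brightest in ES cells (538). For Tagln, Anxa1, Fhl2, Csrp1 and Acta1 XEN1-3 read below IM8A1-II. The most abundant actin, Actg1, was level at 7632 and 7690. The sarcomere genes Mybpc3 (53.2 and 647, 12.2-fold) and Tnnc1 (28.7 and 179, 6.25-fold) were also among the largest differences, and XEN1-3 read 500.1 for Mybpc3. Of 27 immediate early genes 4 were higher, among them the matricellular Ccn2 (2707 and 7059) and Ccn1 (289 and 645), and 0 were lower, while Fos (120.3 and 82.3), Egr1 (199 and 127) and Myc (103 and 59.2) were under 2-fold. That list's median was -0.03, and its counts stand beside the same shares of all genes.

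Glutathione and antioxidant genes were higher at several steps. The glutamate-cysteine ligase modifier Gclm stood at 49.0 and 189 units (3.85-fold), glutathione reductase (Gsr) at 189 and 559 (2.96-fold), the glutathione transferase Gsta4 at 45.3 and 208 (4.59-fold) and catalase (Cat) at 226 and 483. The catalytic subunit Gclc (78.2 and 93.6) was level, heme oxygenase (Hmox1) stood at 1764 and 1297, and the conjugate exporter Abcc1 was lower (156 and 55.9). Of 32 members 4 were at least 2-fold higher and 1 lower, against 3.65% and 2.68% of all genes. The list's median was 0.24. XEN1-3 read 70.2 for Gclm, 196 for Gsr and 92.6 for Gsta4, nearer to IM8A1-I. In the MHC class I list, H2-K1 stood at 442 and 1021 and Tapbp at 78.0 and 215, but both rested on 1 of 3 probe sets. The others of H2-K1 read 151 and 187, and 60.1 and 57.0. Those of Tapbp read 67.0 and 94.6, and 148 and 132. The H2-K1 probe set belongs to a family type that can match related class I genes.

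Several of the largest differences were in genes outside the lists. Embigin (Emb), a membrane partner of monocarboxylate transporters, stood at 63.0 and 1036 units (16.4-fold higher in IM8A1-II), with 94.9 in XEN1-3 and 542 in ES cells. The monocarboxylate transporter Slc16a1, from the glycolysis list, stood at 253 and 605. The proteoglycan Gpc3 stood at 171 and 831 (4.85-fold), with 119 in XEN1-3. Hus1 read 16.5 and 238 on 1 probe set, but its others read 150.2 and 89.9, and 29.8 and 27.2. Of the genes under the limit in IM8A1-I, the brightest in IM8A1-II after Hus1 and Id3 were the surface protein gene Plet1 (138), the repressor Zbtb16 (123), Commd5 (119.8), the complement inhibitor Cd55 (117), Acta1 and the tubulin Tubb4a (103).

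In the other direction, the chromatin protein gene Hmga2 stood at 176 and 37.9 (4.64-fold lower in IM8A1-II), the transcription factor Klf5 at 2156 and 634 (3.40-fold), the reductase Cyb5r1 at 682 and 127, and Arl14ep at 447 and 128. Second probe sets of Cyb5r1 (278 and 157) and Arl14ep (161 and 89.7) were lower by less than 2-fold. Of the genes under the limit in IM8A1-II, the sphingosine kinase Sphk1 was the brightest in IM8A1-I, at 119 against 6.30 (at least 4.36-fold). It was followed by Fgf3, Tspyl4 (99.1), Gga1 (91.6), Cela1 (86.3), St8sia5 (86.1), Prl (77.9) and Lancl2 (74.0). XEN1-3 read 158 for Sphk1 and 1516 for Klf5.

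Growth and energy lists had medians near that of all genes, between -0.08 and 0.10. At least 2-fold differences were seen for 1 of 32 cell cycle genes, 0 of 30 DNA replication genes and 0 of 16 CDK inhibitors and p53 targets. They were seen for 1 of 29 glycolysis and hypoxia genes, 0 of 47 respiratory chain and ATP synthase genes and 0 of 21 endoplasmic reticulum chaperones. The share over all genes was 6.34%, so few calls are due in lists of this size and these counts say little. The cell cycle gene was cyclin D1 (Ccnd1), higher in IM8A1-II and under the limit in IM8A1-I (14.2), and its second probe set read 28.5 and 22.9. In the chaperone list Dnajb9 differed most, at 121 and 207.

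Markers of other cell types differed by list. Of 26 fibroblast and mesenchyme genes on the array 13 were compared, and their summed signal was 1143 units in IM8A1-I and 1153 in IM8A1-II. Thy1 (4.60 and 3.00), Postn (1.60 and 1.10) and Dcn (18.2 and 26.1) were under the limit in both. Twist1 (156 and 87.5) and Twist2 (69.3 and 39.8) were above it in both, and Acta2 (7.30 and 40.6) in IM8A1-II only. Of 15 trophoblast genes 6 were compared (1918 and 2701). Most of both sums was Cited1 (1031 and 1651), which is also on the visceral endoderm list. Cdx2 (10.9 and 11.1) and Elf5 (1.60 and 3.20) were under the limit. Hand1 stood at 20.8 and 68.9, and its second probe set was under the limit (3.10 and 5.70). Of 17 pluripotency genes 5 were compared (2708 and 1594), most of the sum being Klf4. Of 32 germ layer, blood and endothelial genes 19 were compared (1945 and 2483), and 3 were at least 2-fold higher, against 3.65% of all genes. Among these 3 were the VEGF receptor Flt1 (99.2 and 269) and the filament gene Nes (108 and 283). The leukocyte gene Ptprc was under the limit in both.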

How the data were processed

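Signals of 4 Affymetrix MG_U74Av2 arrays were taken from the deposited table, which holds 1 intensity per probe set and array on a linear scale. How the authors summarised probes into signals is not stated in the labels or headers, and equal 2% trimmed means (150.1 units on each array) show that the deposited values were already scaled. Bringing the arrays to the same 2% trimmed mean changed nothing (factors of 1.000), 10.5 units (the 25th percentile) were added and log2 was taken. The 66 control probe sets were left out. The background limit is no detection call. Chip lot, wash protocol and fluidics message were read from the run records.

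Per the platform annotation, 10833 probe sets carried 1 gene symbol, 396 several and 1193 none. Genes were matched by gene ID to RefSeq (GRCm38.p6), with 10817 found. Genes were named by rule: the 15 largest differences in each direction among genes above the limit on both arrays and at or above 84.7 units (the 60th percentile) on 1, the 8 brightest in each direction with 1 array under the limit, up to 4 per list, and 9 lineage regulators, of which those on the array are given. Other list members are given to describe their list. Not all genes that this rule picks are given in the text. Among those left out were Timp3 (183 and 645), Dag1 (102 and 407), Lipa (66.3 and 202) and Hexa (62.2 and 19.9). The integrin, TGF-beta, lysosome and insulin-like growth factor lists are among those not described. Members, lists and motifs were chosen with earlier results of these data known. IM8A1-II and IM8A1-I have 1 array each, so no test was run, and their number limits the precision. Calculations used Python 3.11.15, numpy 2.4.6 and pandas 2.3.3, and were tested on simulated data. Alternatives covered scaling, offset, filter, fold and the choice of probe set.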

Additional observations from a re-analysis of the deposited data

How the results depend on the processing

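No paired analysis was possible because each culture condition had 1 array, and leaving out an array ends the comparison. Against 291 probe sets higher and 204 lower, the counts were 158 and 106 among probe sets that reached the 60th percentile on 1 array, 108 and 64 when the 50th percentile served as the offset, 857 and 692 at 1.5-fold and 80 and 40 at 3-fold. When the 5th percentile served as the offset, 396 were higher and 296 lower. With the other alternatives both counts stayed within 1.5 times: median scaling (247 and 266, the median over all probe sets moving from 0.01 to -0.08), quantile normalization (273 and 235), values raised to the limit (258 and 171), no filter (355 and 252) and, added after seeing the data, probe sets whose names carry no suffix letter (222 and 174). Of the 91 named genes past 2-fold, 28 fell under it in at least 1 alternative, 22 of them under the larger offset. H2-K1 changed sign without suffixed probe sets (-0.06). The median of the cholesterol list ran from 0.66 to 1.31, that of the stress list from -0.82 to -1.01 and that of the visceral endoderm list from 0.37 to 0.73. Dim signals limit the comparison, since dim probe sets passed 2-fold more often.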
